A study of Drosophila melanogaster with 2 samples.

Results

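The genes described here are 35 genes of the cell cycle and of DNA replication, among 13968 protein-coding genes of the annotation. They were taken from a list of names and not chosen by their signal, though earlier results of these data were known. They comprise 15 genes of replication licensing and replication, 11 genes of cyclins, cyclin-dependent kinases and their regulators, 4 genes of the E2F and retinoblastoma group and 5 mitotic genes. The data are chromatin immunoprecipitation sequencing (ChIP-seq) peak lists from 2 biological replicates of Drosophila melanogaster embryos, aged 0 to 24 h and taken as whole organisms. The flies carried a transgene for toy, a Pax6-family transcription factor also named twin of eyeless, fused to eGFP, and chromatin was sonicated and precipitated with an antibody against GFP. Both replicates belong to the same group and strain, toy-GFP, so no condition is compared, and a possible control experiment named in the labels was not analysed here. Each peak was given to the protein-coding gene whose transcription start site (TSS) lay nearest to its summit.

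The origin recognition complex marks replication origins and, with the licensing factor Cdt1, loads the MCM helicase before DNA synthesis, a step that geminin blocks. E2F factors with their partner Dp activate genes for DNA synthesis and are held back by the retinoblastoma family, while cyclins with their kinases drive the start of DNA synthesis and entry into mitosis. In the fly embryo, early divisions run on maternal products, later divisions depend on zygotic transcription of string, and many cells then leave the cycle. The protein toy is best known as an early regulator of eye and brain development. In whole embryos, binding in a smaller share of cells and weaker binding in each cell cannot be told apart.

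Most of the cell cycle genes, like most protein-coding genes, had no reproducible toy-eGFP peak, though the members' share with one was the higher. The few members with a peak were scattered over all 4 groups. In the conservative thresholded list, which holds peaks with a global irreproducible discovery rate (IDR, a measure of how well a peak repeats) of at most 0.01, 8 peaks lay at 6 of the 35 genes. These were Mcm2 and dpa of the MCM helicase, the cyclins CycB and CycE, the E2F partner Dp and the spindle checkpoint gene BubR1. The share was 17.1% of the members, beside 8.08% of all protein-coding genes (1128 of 13968). The longer pooled list added geminin, for 7 members or 20% beside 10.4% of all genes. Replicate 1 alone gave 3 members (CycB, Dp and BubR1, 8.57% beside 5.49%), and replicate 2 alone gave 5 (CycB, Dp, Mcm2, CycE and dpa, 14.3% beside 6.47%). CycB and Dp were in all 4 thresholded lists, and 28 members were in none. The matching counts over all genes were not made, so these numbers have no background beside them. With so few members bound, these shares are descriptions of the lists, and no test of their difference from the background was made.

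**Figure D1:**
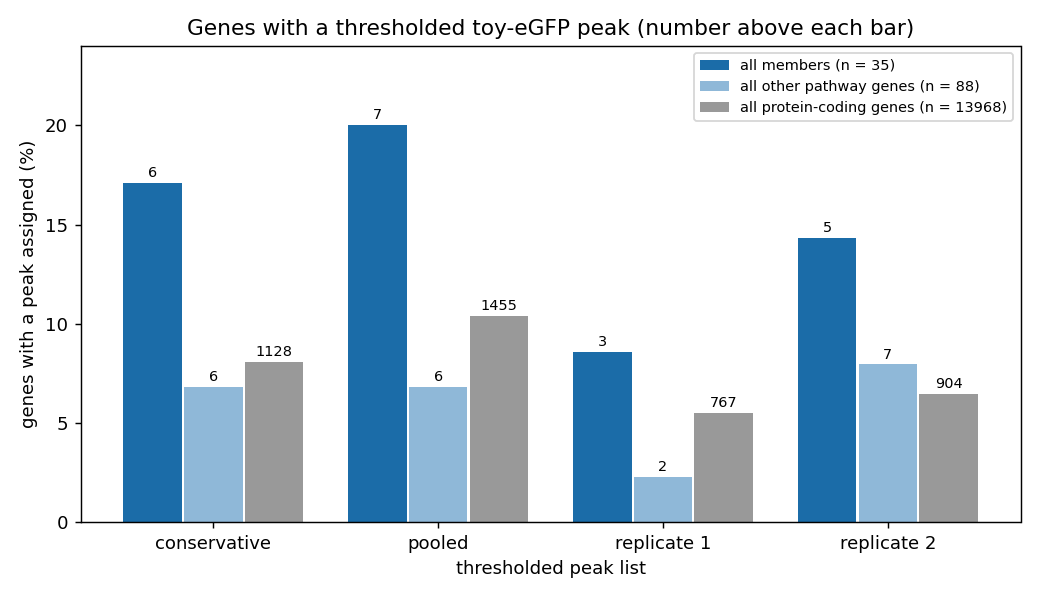
The bars give the percentage of genes with an assigned peak in each of the 4 thresholded lists, with the number of genes above each bar, for the 35 members, 88 other genes of the same pathways and all 13968 protein-coding genes. The members' share lay above that of all genes in each list, from 8.57% against 5.49% in replicate 1 to 20% against 10.4% in the pooled list, while the other pathway genes reached between 2.27% and 7.95%.

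Among the 15 genes of replication licensing and replication, Mcm2, a subunit of the MCM helicase, had the strongest peak. Its peak at chr3R:8264731-8265070 (dm6) had a signal value of 115.6 in the conservative list, rank 602 of 1404, with a global IDR of 0.00121. The signal is the authors' own value per peak, on a scale that the sources do not give. Replicate 1 had 48.7 and replicate 2 had 63.6 at this site, a log2 ratio of replicate 2 to replicate 1 of 0.38, and only replicate 2 passed its threshold. These levels placed Mcm2 at the 94.0th and the 96.2nd percentile of all genes by strongest ranked peak in replicates 1 and 2. The summit lay between genes, 69 bp upstream of the Mcm2 TSS and 450 bp from the TSS of RPA1, the large subunit of the single-strand binding protein of the replication fork, which is transcribed away from Mcm2 with its TSS 519 bp from that of Mcm2. The assignment to Mcm2 therefore also covers the promoter region of a second replication gene. The sequence from within the peak up to the base before the Mcm2 TSS is shown because it carries this summit, at base 151 of 219 (chr3R:8264751-8264969, plus strand, dm6, RefSeq assembly). It holds none of the motifs searched, so no base is in capitals.
Mcm2 promoter side of the peak: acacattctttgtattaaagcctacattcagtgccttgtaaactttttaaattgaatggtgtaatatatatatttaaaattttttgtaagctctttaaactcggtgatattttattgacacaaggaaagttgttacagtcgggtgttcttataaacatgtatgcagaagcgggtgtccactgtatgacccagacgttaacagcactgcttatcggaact

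An E2F site lay beyond the end of this stretch. The E2F letters searched were TTTCCCGC, TTTCGCGC, TTTGCCGC and TTTGGCGC on either strand, and a match is a description of the sequence, not a bound site. The Mcm2 match was centred 108.5 bp from the summit and began at base 37 counted from the gene start as base 1. Promoters were taken as 250 bases before to 50 bases after each gene start. Such letters were in the promoters of 9 of the 15 licensing and replication genes (Mcm2, Mcm3, Mcm5, Mcm6, Orc1, Orc4, Orc5, Orc6 and lat), of stg among the 11 cyclin and kinase genes, and of none of the other 9 members, so in 28.6% of members beside 6.41% of all promoters. Of these 10 genes, Mcm2 had a conservative peak and the other 9 did not. The promoter window used only the outermost start of each gene. It thus missed the E2F letters near the conservative summit of dpa, described below, so dpa is not among the 10. The sites of Mcm2 and of 5 of the genes without a peak are shown side by side. Each is on the strand of its gene with the E2F letters in capitals.
Mcm2 (peak; chr3R:8264995-8265019, plus strand): ttagcaaacatTTTCCCGCgcattt
Mcm3 (no peak; chrX:5323838-5323867, plus strand): cacactacgctTTTCCCGCgaaaaaacttt
Mcm5 (no peak; chr3R:10788545-10788573, plus strand): cggtaattttgGCGGCAAAatattcgcac
Mcm6 (no peak; chrX:6674389-6674418, plus strand): gtcagaaaaagGCGCCAAAaccgagcaaag
Orc5 (no peak; chr2L:13829836-13829865, plus strand): agagggaataaTTTGGCGCcatttcaatgg
stg (no peak; chr3R:29255795-29255824, minus strand): taaaagctcgcGCGCCAAAatcagtggcct

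The ranked lists also hold peaks that did not pass. The 9 genes with E2F letters and no peak were grouped by the absence of a conservative peak. Their strongest ranked peaks were weaker than that of Mcm2 in both replicates, or absent. That grouping largely fixed this in advance, so the values are given as a description only. The highest was lat, with 34.5 in replicate 1 (the 85.6th percentile of all genes) and 23.9 in replicate 2, and Orc6 followed with 31.6 in replicate 1 (the 81.0th percentile) and no ranked peak in replicate 2. For Mcm3 the strongest ranked peak was 15.1 in replicate 1 and 15.9 in replicate 2. For Orc5 the values were 23.7 and 13.7, and for the phosphatase gene stg they were 16.4 and 11.4. Mcm5 had 18.9 and Mcm6 15.5 in replicate 1, and neither had a ranked peak in replicate 2. Orc1 and Orc4 had 18.1 and 18.7 in replicate 1, and 26.0 and 25.7 in replicate 2. These values are for the strongest assigned peak, which was often away from the promoter. Its summit was 1362 and 1380 bp from the TSS for Orc5, and 2958 bp for lat in replicate 2. Only for stg in replicate 2 (15.7) and Mcm5 in replicate 1 (22.9) was a peak within 500 bp of a TSS higher. Those summits were nearer to another gene.

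The second licensing gene in the conservative list was dpa, which encodes another subunit of the MCM helicase. Its peak on 2R at 7499822 to 7500161 had a signal of 102.7 (rank 745, global IDR 0.00186), with 54.6 in replicate 1 and 44.5 in replicate 2. The log2 ratio was -0.30, and replicate 2 alone passed its threshold although its value was the lower. The summit lay 115 bp upstream of the nearest dpa TSS, within the 5' UTR of another dpa transcript, and 155 bp from the TSS of didum, an unconventional myosin gene transcribed in the opposite direction. The window reaching 150 bp to each side of this summit held 2 E2F matches, the nearer centred 31.5 bp from the summit.

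The geminin gene, which encodes the inhibitor of Cdt1, was in the pooled list alone. Its peak on 2R at 6656232 to 6656571 had a signal of 69.8, rank 1504 of 1895, and its summit was 1 bp upstream of a geminin TSS. Replicate 1 had 28.9 and replicate 2 had 35.5, and neither passed its own threshold. The gene for Cdt1 itself, dup, came close: its ranked promoter peak had a signal of 57.7 with its summit 32 bp upstream of a TSS, and global IDR values of 0.02 in the conservative and 0.0168 in the pooled procedure, both above the limit of 0.01. At the dup promoter replicate 1 had 31.1. A replicate 2 peak of 30.3 also lay within 500 bp of a dup TSS, but its summit was nearer to the TSS of another gene, and the strongest replicate 2 peak assigned to dup was 15.4, 1500 bp downstream of its TSS.

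None of the 6 genes of the origin recognition complex was in a thresholded list, beside 5.49% to 10.4% of all genes. With 6 genes, such a count cannot be told apart from these shares. Of the 6 genes, lat, which encodes the Orc3 subunit, had the strongest ranked peak in replicate 1 and Orc1 in replicate 2, as given above. Orc2, the subunit without E2F letters in its promoter, had 20.8 in replicate 1 and no ranked peak in replicate 2. The remaining helicase gene Mcm7 reached 18.8 and 33.5, the latter at a summit 5024 bp from its TSS. The sliding clamp gene PCNA, which holds DNA polymerases on the template, reached 19.7 and 12.9. For the 15 genes as a group the count was 2 in the conservative list (13.3%, beside 8.08% of all genes). It was 3 in the pooled list (20%, beside 10.4%), 0 in replicate 1 (0%, beside 5.49%) and 2 in replicate 2 (13.3%, beside 6.47%).

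**Figure D2:**
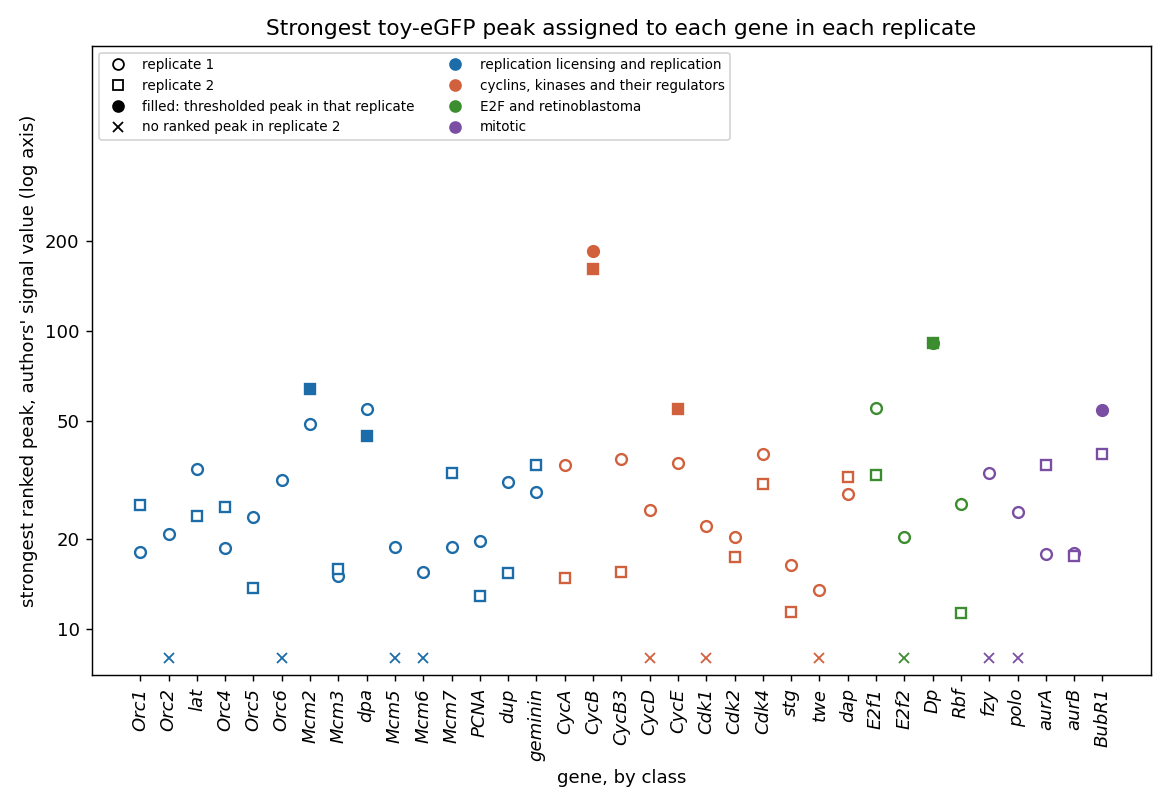
For each of the 35 genes, ordered by group, the points give the authors' signal value (log axis) of the strongest ranked peak in replicate 1 (circles) and replicate 2 (squares). Filled points passed the threshold in that replicate and crosses mark the 10 genes with no ranked peak in replicate 2. CycB stands highest in both replicates (184.9 and 160.8), followed by Dp (90.8 and 90.7).

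Of the 11 genes of cyclins, kinases and their regulators, CycB and CycE had conservative peaks (18.2%, beside 8.08% of all genes). CycB encodes the B-type cyclin that acts with Cdk1 at entry into mitosis. Its peak was the strongest of all members, with a signal of 347.3 (rank 79 of 1404, global IDR 1.03e-05). Replicate 1 had 184.9 and replicate 2 had 160.8, a log2 ratio of -0.20, and both passed their thresholds. The summit, on 2R in the peak from 22802861 to 22803066, was not at the promoter: it lay 3329 bp downstream of the nearest CycB TSS and 547 bp beyond the 3' end of the gene. It was intergenic, and the nearest edge of the neighbouring gene blw was 794 bp away. At CycB promoters the strongest ranked peaks were 13.6 in replicate 1 and 22.7 in replicate 2.

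CycE encodes the cyclin that acts with Cdk2 at the start of DNA synthesis, and its transcription is known to be patterned by tissue in the fly embryo. Its stronger peak had a signal of 92.8 (rank 876, global IDR 0.00393), with 36.1 in replicate 1 and 54.6 in replicate 2. The log2 ratio of 0.60 was the highest among the member peaks, and replicate 2 alone passed its threshold. The summit was in an intron, 454 bp upstream of the nearest of the 3 CycE start sites. A second conservative peak, chr2L:15747100-15747439, overlapped the first, drew on the same replicate peaks and had a signal of 28.9 with its summit 660 bp upstream. This weaker peak is not in the pooled list, where its global IDR was 0.663 against 0.00392 in the conservative procedure. The pooled list held another CycE peak with a signal of 59.5, 405 bp downstream of a TSS, with 34.2 in replicate 1 and 26.1 in replicate 2; its summit was 256 bp from the TSS of the antisense RNA gene asRNA:CR44866. In the whole of the conservative ranked list CycE had 23 peaks, and the median for all genes was 4.0. This count was not adjusted for the length of the gene. It was not particular to CycE: E2f1 had 37 and dap had 19, both without a thresholded peak.

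The sequence under the stronger CycE peak is shown because it holds both the homeodomain core TAATTA and a match to TTTGAA, the core of the CHR element known from promoters of cell cycle genes. The stretch of 213 bases (chr2L:15747001-15747213, minus strand, dm6) has the summit at base 150. The capitals mark TAATTA at bases 12 to 17 and TTTGAA at bases 152 to 157, and the GC content of the stretch was 18.3%.
CycE intronic peak: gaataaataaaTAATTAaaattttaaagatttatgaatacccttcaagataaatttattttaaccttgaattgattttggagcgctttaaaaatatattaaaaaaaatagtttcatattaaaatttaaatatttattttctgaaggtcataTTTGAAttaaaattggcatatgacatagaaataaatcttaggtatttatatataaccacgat

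The other 9 genes of the group had no thresholded peak in any list. Cdk4, the kinase partner of Cyclin D, had the strongest ranked peaks among them in replicate 1 with 38.7, and 30.7 in replicate 2. The cyclin genes CycB3 (37.3 and 15.6) and CycA (35.5 and 14.8) were higher in replicate 1. For dap, the inhibitor of the Cyclin E kinase, the values were 28.3 and 32.3, and for Cdk2 they were 20.3 and 17.4. CycD, Cdk1 and twe, the germline counterpart of stg, had 25.1, 22.1 and 13.5 in replicate 1 and no ranked peak in replicate 2. The mitotic phosphatase gene stg, whose transcription times the divisions of the later embryo, was thus among the lowest members by strongest assigned peak. It was at the 27.2nd percentile of all genes in replicate 1 and the 26.4th in replicate 2.

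In the E2F and retinoblastoma group, Dp had 2 conservative peaks and E2f1, E2f2 and Rbf had none. The share was 1 of 4 genes (25%, beside 8.08% of all genes). Dp encodes the partner with which E2F proteins bind DNA. Its stronger peak, on 2R at 13223189 to 13223528, had a signal of 174.2 (rank 274, global IDR 0.00014), with 90.8 in replicate 1 and 90.7 in replicate 2, both past their thresholds. The values of the replicates were almost equal, at a log2 ratio of 0.00. This summit was in an intron, 232 bp upstream of the nearest of the 3 Dp start sites. The second peak, at 13223884 to 13224223, had a signal of 111.3 (rank 647), with 61.6 in replicate 1 and 41.4 in replicate 2, a log2 ratio of -0.57, the lowest among the member peaks, and passed in replicate 1 alone. Its summit was 463 bp downstream of a Dp TSS and 408 bp from that of the non-coding gene lncRNA:CR43918.

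E2f1, the activating E2F of the fly, had the strongest ranked signal of the members outside the thresholded lists. Its peak on 3R at 21632921 to 21633260, 18 bp upstream of an E2f1 TSS and also over the antisense gene asRNA:CR46055, had a signal of 78.4, with 50.2 in replicate 1 and 25.3 in replicate 2. Its global IDR was 0.0283 in the conservative and 0.00297 in the pooled procedure. The latter met the limit of 0.01, yet the peak is not in the authors' pooled list. A separate E2f1 peak of 55.3 in replicate 1, 679 bp upstream of a TSS, likewise met the limit in that replicate with 0.00692 and is not in its thresholded list. E2f1 is therefore counted as unbound here by the lists, not by the IDR values. Across the pooled ranked list, 92 of 1987 peaks that met the limit are not in the thresholded list, and in replicate 1 the number was 39 of 964. The thresholded lists had a further input of unstated content, and its part in these omissions was not tested. E2f2, the repressive E2F, reached 20.3 in replicate 1 with no ranked peak in replicate 2, and Rbf, the retinoblastoma homologue, reached 26.3 and 11.3.

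Of the 5 mitotic genes, BubR1 had a conservative peak (20%, beside 8.08% of all genes). It encodes a kinase-related protein of the checkpoint that delays anaphase until chromosomes are attached to the spindle. The peak on 2R at 5974320 to 5974659 had a signal of 89.9 (rank 920, global IDR 0.00269), with 54.4 in replicate 1 and 38.7 in replicate 2, a log2 ratio of -0.49, and passed in replicate 1 alone. The summit was intergenic, 105 bp upstream of the BubR1 TSS. The kinase gene aurA, which acts at centrosomes, had a ranked promoter peak of 56.5, 88 bp upstream of its TSS, with 17.9 in replicate 1 and 35.4 in replicate 2. Its global IDR was 0.353 in the conservative and 0.03 in the pooled procedure, both above the limit. For aurB, the kinase of the chromosomal passenger complex, the values were 18.0 and 17.6. The kinase gene polo had 24.8 and fzy, an activator of the anaphase-promoting complex, had 33.3 in replicate 1, and neither had a ranked peak in replicate 2.

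The ranked lists cover most genes, so a ranked peak says little about a single gene. Every member had a ranked peak in replicate 1 (100%, beside 87.4% of all genes) and 25 had one in replicate 2 (71.4%, beside 79.5%). The conservative ranked list reached 26 members (74.3%, beside 82.6%) and the pooled ranked list 34 (97.1%, beside 90.7%), the exception being twe. The 10 members with a ranked peak in replicate 1 and none in replicate 2 made up 28.6% of the list, beside 14.1% of all genes, and their strongest replicate 1 values ran from 13.5 to 33.3. The replicates also differed in the number of ranked peaks over all genes, 81037 in replicate 1 and 115142 in replicate 2. Read depth is unknown, and its part in these differences was not tested. Above the 90th percentile of strongest signal in both replicates were Mcm2, dpa, CycB, Dp and BubR1, which is 14.3% of members beside 6.21% of all genes. CycE passed that level in replicate 2 alone and E2f1 in replicate 1 alone.

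By position, 6 of the 8 conservative member peaks had their summit within 500 bp of a TSS, which is 75% with a Wilson 95% interval of 40.9 to 92.9%, beside 705 of 1402 conservative peaks (50.3%, 47.7 to 52.9%). The intervals cover counting error only and meet, and no test of the difference was made. The 8 peaks are not independent, as those of CycE overlap and those of Dp lie close together. They are also part of the 1402, so no conclusion on a difference is drawn. The member peaks beyond 500 bp were CycB, downstream of the gene, and the weaker CycE peak. By gene, 5 members had a conservative summit within 500 bp of a TSS of their own or a shared promoter (14.3%, beside 6.61% of all genes). In the ranked lists the counts were 26 members in replicate 1 (74.3%, beside 63.6%) and 18 in replicate 2 (51.4%, beside 62.1%), so the members lay above the background in one replicate and below it in the other. The median signal of the 8 peaks was 107.0, with a range of 28.9 to 347.3, and that of all conservative peaks on the chromosome arms was 106.0. The bound members were thus bound at ordinary strength for this list, with CycB as the strongest.

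**Figure D3:**
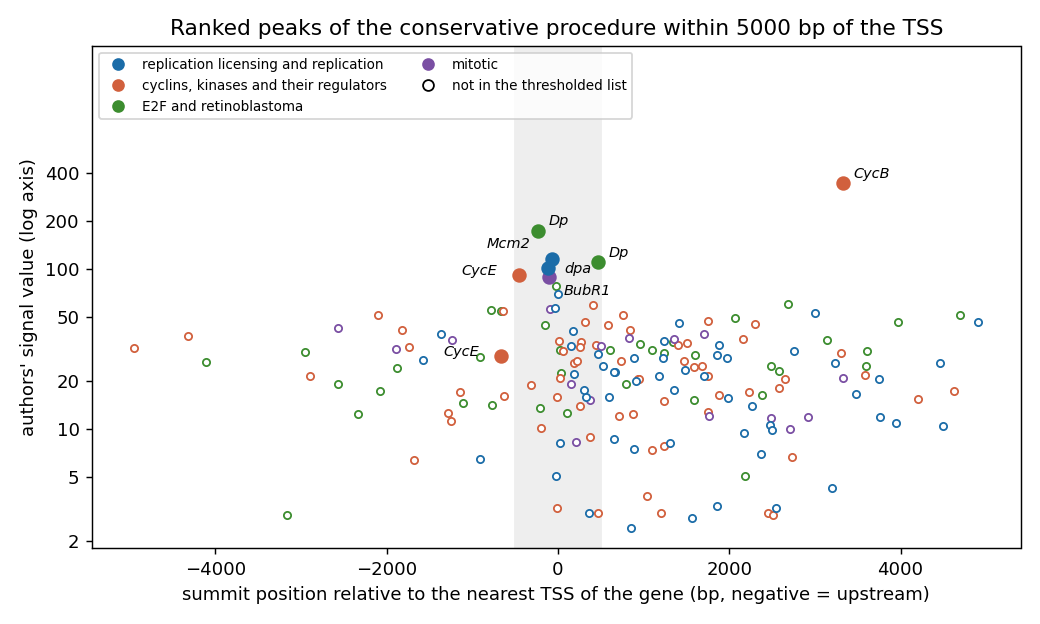
Each point is a ranked peak of the conservative procedure at a member gene, placed by the distance of its summit from the nearest TSS of that gene (bp, negative is upstream), for the 178 peaks within 5000 bp (23 farther peaks are not drawn), and by the authors' signal value (log axis). Filled points are the 8 peaks in the thresholded list, open points did not pass, and the grey band marks 500 bp on each side. Filled peaks of Dp, Mcm2, dpa, CycE and BubR1 sit in the band, and CycB sits 3329 bp downstream with 347.3.

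The member peaks did not lean to one replicate. The log2 ratio of replicate 2 to replicate 1 signal had a median of -0.10 and a spread of 0.47 (SD over 8 peaks, which are not replicates), with 3 of 8 higher in replicate 2. Over the 1388 conservative peaks with a value in both replicates, the median was 0.04 with an SD of 0.46. Both overlapping CycE peaks carry the same replicate values and count once each in the 8.

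**Figure D4:**
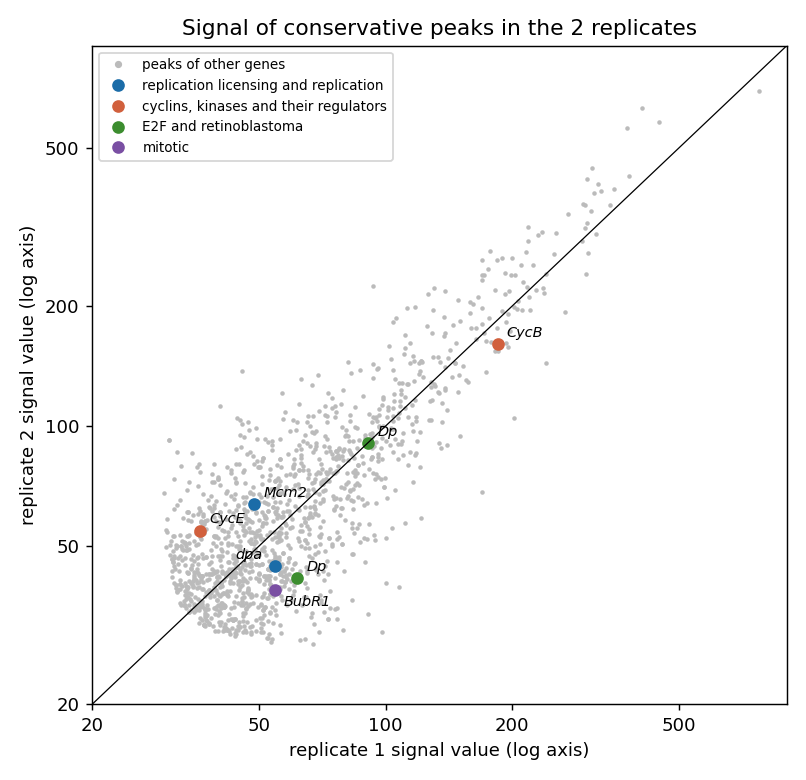
Each conservative peak is placed by its signal value in replicate 1 and replicate 2 (log axes), with member peaks in colour by group, peaks of other genes in grey and a line of equal signal. The member peaks fall within the grey cloud, from CycE at 36.1 and 54.6 to CycB at 184.9 and 160.8, and the stronger Dp peak lies on the line.

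Short motifs in windows reaching 150 bp to each side of the 8 member summits were set beside all 1402 conservative peaks. The windows were not matched for position: 75% of the member summits lay within 500 bp of a TSS, beside 50.3% of all. The part of position in the shares below was not tested. E2F letters were in 2 windows (Mcm2 and dpa, 25% beside 5.63%). The DNA replication-related element (DRE, TATCGATA), known from promoters of fly replication genes, was in 1 window, that of BubR1 (12.5% beside 4.07%). TTTGAA was in 4 windows (CycB, dpa and both of CycE, 50% beside 37.1%). The homeodomain core TAATTA was in both overlapping CycE windows (25% beside 20%), as the same genomic site counted in each. The Pax6 paired domain consensus, with up to 2 mismatches, was in 1 CycE and 1 Dp window (25% beside 15.0%). The repeat GAGAG was in none, beside 39.9% of all windows. All motifs were searched on both strands. In the promoters of the 35 members DRE was in 7 (20% beside 9.36% of all promoters), among them BubR1, PCNA, Orc2 and CycA, and the paired domain consensus was in 4 (11.4% beside 15.0%).

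Beyond the members, 88 other genes of the same pathways were listed, and 6 of them had a conservative peak (6.82%, beside 8.08% of all genes). The strongest was at chif, the Dbf4-type activator of the Cdc7 kinase that fires licensed origins, with 406.4 (211.1 in replicate 1 and 195.1 in replicate 2), above every member peak and past both replicate thresholds. The chif summit also lay within the gene Hyls1. Cdc7 itself had 75, with 41 and 38 in the replicates, 1615 bp downstream of its TSS. PolD2, a subunit of DNA polymerase delta, had 160.3, with 69.5 and 82.8, also within 500 bp of a TSS of CG13933. Cdc16, a subunit of the anaphase-promoting complex, had 136.6, with 44.1 and 87.5, also within 500 bp of a TSS of orb. The ribonucleotide reductase subunit gene RnrS had 109.0, likewise near a TSS of CG34231, and the centrosomal gene cnn had 94.2. By group these were 2 of 29 genes of the replication fork and nucleotide supply, 3 of 19 kinase, checkpoint and anaphase-promoting complex genes, 0 of 6 E2F, Myb and DREAM genes and 1 of 34 genes of mitosis and chromosome segregation.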

How the data were processed

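ChIP-seq of toy-eGFP was available as 8 deposited peak lists from 2 biological replicates on dm6. Column 7 is the authors' signal value, the peak's summit offset was read from the deposited column 10 (other positional value), and the deposited ranked lists give the −log10 of the global IDR. Per the deposited file descriptions, a replicate's lists rest on its own alignments and the series lists on those of both replicates; 1 further input was shared by all. Neither the aligner nor the peak caller nor the signal's scaling was given in the sources used. Of the series' 2 ranked lists, 8 further columns each were not used. Read depth is unknown, so peak numbers stand in its place: 925 and 1098 thresholded peaks in replicates 1 and 2.

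Genes came from Ensembl release 115 and sequence from RefSeq Release 6, both the dm6 assembly, and all peaks on the arms ended within the reference arms. A summit went to the gene, among protein-coding ones, with the closest TSS, and replicate signals were taken from each replicate's own ranked list at an overlapping peak. The gene lat is annotated as Orc3, and 7 other pathway names were likewise updated. Motifs were exact words on both strands, except that the Pax6 paired domain consensus allowed 2 mismatches. Counts, medians and Wilson 95% intervals were computed with Python 3.11.15, numpy 2.4.6, pandas 2.3.3 and scipy 1.17.1, and the assignment was tested on simulated data. With 1 group no test between groups was possible. Members, lists and motifs were chosen with earlier results of these data known. All 35 members were accounted for. By plan, members with a thresholded peak, other pathway genes with a conservative peak and neighbours with a TSS within 500 bp of a member summit were named. The neighbour blw, the neighbours at peaks of other pathway genes and the unlisted peaks of E2f1 were named after their values were seen.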

Additional observations from a re-analysis of the deposited data

How the results depend on the processing

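The count of 6 members with a conservative peak fell to 2 (CycB and Dp) at a global IDR of at most 0.001 and to 2 where both replicates had to pass, and to 3 above the median signal. It ranged from 3 without replicate 2 to 5 without replicate 1. At an IDR of at most 0.001 the median member signal was 260.8, members in the pooled list were 3 and members in replicate 2 were 3 (the latter counts were added after seeing the data). In the lists of single replicates, the median member signal was 76.2 without replicate 2 and 63.6 without replicate 1. Peaks within 500 bp of a TSS numbered 6, ranged from 3 without replicate 2 to 4 without replicate 1, and were 1 at the stricter IDR and 3 within 200 bp. At the summits, DRE matched 2 windows with 1 mismatch allowed (25% beside 18.2% of all windows). In windows of 100 bp to each side E2F letters matched 1 (12.5% beside 3.0%) and TAATTA 1 (12.5% beside 15.8%). In the pooled list the paired domain consensus matched 1 (11.1% beside 15.0%) and GAGAG 1 (11.1% beside 40.4%). No other count or median moved beyond the limit set for it. The share of all genes under the stricter limits is not given here, and the cause of the lower counts was not tested. No paired analysis was possible because both replicates belong to 1 group and there is no second group to pair with. Read depth is unknown, no control was analysed, and nearest-TSS assignment cannot tell which gene a shared promoter serves.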

Other observations

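A summit was also counted for every gene with a TSS within 500 bp, instead of the nearest alone. This gave 8 of the 88 other pathway genes a conservative peak (9.09%, beside 6.61% of all genes). The distance limit left out chif and Cdc7, with summits 926 and 1615 bp from the TSS. Of the 8, those not described above were the checkpoint kinase gene mei-41 (signal 172.9), the condensin subunit gene SMC2 (151.3) and the cohesin subunit gene SA1 (138.7). Each was at a peak nearer to a TSS of another gene. RPA1 joined them through the peak it shares with Mcm2 (115.6).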
